A study of Mus musculus with 4 samples.

Results

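The cytosolic ribosomal protein genes encode the proteins of the large (Rpl) and small (Rps) subunits of the ribosome that translates nuclear messages. They were taken here as every gene whose symbol is Rpl or Rps followed by a number, with or without a closing a, l or x, together with the stalk genes Rplp0, Rplp1 and Rplp2, and this found 81 genes. The deposited files hold 37718 gene rows in all. Of the 81 members, 64 had a row of their own and 17 were counted only in rows that join overlapping genes, mostly with a small nucleolar RNA that lies inside the member. The intron files held 307 introns of 77 members, out of 207562 introns of 24963 genes. Another gene that matches the name, Rpl32l, was not analysed here.

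RNA came from cells of mouse testes at 20 days post partum, purified for diplotene spermatocytes, which are late in the first meiotic prophase. In such preparations the authors counted mostly, but not only, diplotene cells. The animals were Tdrd6+/- or Tdrd6-/- and carried hCD4, a human surface marker driven by the endogenous Tdrd6 promoter, through which the cells were pulled out on magnetic beads. Tdrd6 itself is a Tudor domain protein of the germ cell cytoplasm. Each genotype had 2 samples, each a pool of at least 4 mice. The labels do not say whether the pools came from separate isolations, so p-values measure the spread between these samples, which may be technical. Total RNA was depleted of ribosomal RNA and sequenced strand-specifically, which left 26454326 to 31388750 counts on genes per sample. Tdrd6 measured 1269 and 1412 counts scaled to the library size as CPM in the Tdrd6+/- samples and 11.4 and 12.5 CPM in the Tdrd6-/- samples, which checks the labels.

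Ribosomal proteins are made in near equal amounts, and their messages are short, abundant and often begin with a C and a run of pyrimidines, the 5' terminal oligopyrimidine (TOP) tract, through which growth signals control their translation. Each functional gene has left many processed pseudogenes, copies of its message inserted elsewhere in the genome, so a read from a coding exon can match many places. In spermatocytes the X chromosome is transcriptionally silenced, and several X-linked ribosomal protein genes have autosomal paralogues that are used in the testis, among them Rpl10l for Rpl10 and Rpl39l for Rpl39.

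Those pairs carry the clearest difference in level among the members, so their coding sequences are shown. They come from GENCODE M21 transcripts on GRCm38 (mm10), and capitals mark the bases at which the members of a pair differ. Rpl39 (chrX:37082520-37085402, minus strand) and Rpl39l (chr16:10170226-10174911, plus strand) are given whole, without the stop codon, and differ at 23 of 153 bases.
Rpl39: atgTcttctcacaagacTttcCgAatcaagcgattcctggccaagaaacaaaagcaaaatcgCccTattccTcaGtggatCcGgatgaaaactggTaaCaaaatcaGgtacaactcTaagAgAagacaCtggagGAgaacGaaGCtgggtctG
Rpl39l: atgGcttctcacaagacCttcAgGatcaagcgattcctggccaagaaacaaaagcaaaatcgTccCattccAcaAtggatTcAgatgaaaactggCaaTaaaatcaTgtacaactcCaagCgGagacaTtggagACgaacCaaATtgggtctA
Rpl10 (chrX:74270812-74273135, plus strand) and Rpl10l (chr12:66283379-66284401, minus strand) are shown for their first 150 coding bases, of which 25 differ.
Rpl10: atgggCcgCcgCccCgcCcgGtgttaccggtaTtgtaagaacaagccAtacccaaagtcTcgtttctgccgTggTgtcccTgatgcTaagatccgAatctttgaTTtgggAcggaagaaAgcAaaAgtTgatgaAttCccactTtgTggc
Rpl10l: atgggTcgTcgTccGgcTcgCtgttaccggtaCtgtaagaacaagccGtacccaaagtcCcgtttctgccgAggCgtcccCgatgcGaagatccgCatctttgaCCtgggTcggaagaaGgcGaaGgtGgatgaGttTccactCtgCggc
Over the whole alignment, Rpl39 and Rpl39l were 85.0% identical and Rpl10 and Rpl10l 84.7%. No 50-base word of the Rpl39l coding sequence occurred in another annotated gene, and 87.5% of the words of Rpl10l were unique. For Rpl39 13.5% of the words were unique, and for Rpl10 0%, its words being shared with 15 other genes, of which 14 are pseudogenes.

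RefSeq gene starts on GRCm38 were matched for 59 members, with 71 starts. A C followed by 4 bases that are each C or T, read in the direction of transcription, opened 13 of these starts (18.3%), against 2.51% of the 32851 starts of all genes. The windows below run from 15 bases before the start to 15 bases from it, with the first 5 transcribed bases in capitals. Rps18, Rps10 and Rpl38 are shown as members with such a start, and the testis paralogues Rpl10l and Rpl39l as members without it. Most member starts lacked it, among them that of Rpl41, so its absence is not particular to the paralogues.
Rps18 (chr17:33955651-33955680, minus strand): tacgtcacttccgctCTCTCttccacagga
Rps10 (chr17:27635230-27635259, minus strand): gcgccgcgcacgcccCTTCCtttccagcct
Rpl38 (chr11:114668565-114668594, plus strand): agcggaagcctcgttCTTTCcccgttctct
Rpl10l (chr12:66284387-66284416, minus strand): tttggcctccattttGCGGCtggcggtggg
Rpl39l (chr16:10170213-10170242, plus strand): ctcccaggcctttccGGATTtccggtggtc
The start is the annotated one and was not measured in these cells.

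The levels of the members covered more than 3 orders of magnitude, and the lowest included a paralogue known from muscle and a processed pseudogene. Levels are given as CPM per kb of annotated exon, and since the exon length counts every annotated isoform, it lowers the value of genes with long minor isoforms. Among members with their own row, the highest mean was that of Rplp1, a stalk protein that helps to recruit elongation factors, with 332 CPM per kb. It was followed by Rpl32 with 246, the testis paralogue Rpl39l with 242, the stalk scaffold Rplp0 with 205 and Rpl8 of the large subunit core with 199. The lowest of these were Rpl3l, a paralogue of Rpl3 known from muscle, with 0.0586, X-linked Rpl36a with 0.18, the processed pseudogene Rpl6l with 0.263, X-linked Rpl39 with 0.989 and Rpl17 with 1.52. Rpl10, whose row is joined, measured 0.763, 0.280, 0.616 and 0.335 CPM per kb in sample order. The large subunit genes with their own row had a median of 19.7 CPM per kb (n = 35) and the small subunit genes 23.6 (n = 27).

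The level went with the share of the coding sequence that no other annotated gene holds. The 18 members with own rows and no unique coding 50-base word had a median of 3.70 CPM per kb. The 21 members with up to 20% unique words had a median of 22.7, the 9 members with 20 to 50% had 39.1, and the 14 members above 50% had 162. Spearman's rho between the unique share and the level was 0.62 over 62 members, which are points of the same libraries and are given as a description. How the authors treated fragments that match several places is not given in the sources used here, and its part in these levels was not tested. Introns, which pseudogenes lack, gave a rho of 0.42 between the unique share and the intron CPM (60 members).

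**Figure D1:**
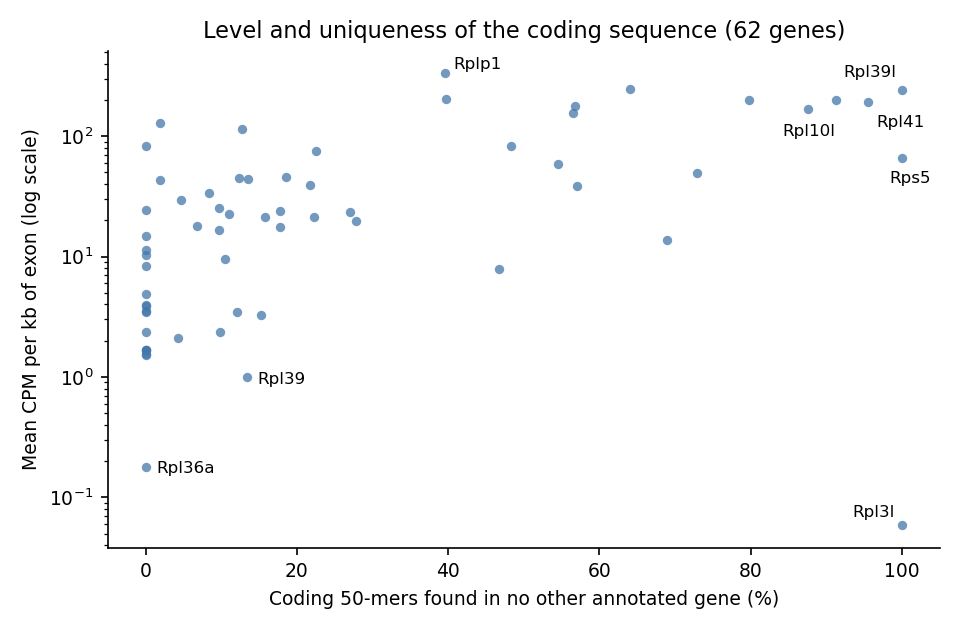
Mean level of 62 ribosomal protein genes (CPM per kb of exon, log scale) against the share of their coding 50-base words that occur in no other annotated gene (%). Each point is a gene, averaged over the 4 samples. The 14 genes above 50% have a median of 162 and the 18 genes at 0% a median of 3.70, with Rpl3l as the low exception at 100%.

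The paralogue pairs differed in which copy the counts fell on. Rpl10l, a copy of the protein that completes the large subunit near its catalytic centre, counted 3692 and 4405 fragments in Tdrd6+/- and 5007 and 7238 in Tdrd6-/-. Rpl10, joined with Snora70, counted 41, 16, 40 and 22 in the same order. Per kb of exon, Rpl10l was thus 181, 553, 251 and 660 times as high as Rpl10, far beyond the spread between samples.

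Rpl39l, the copy of a small protein that lines the exit tunnel of the ribosome, counted 4803, 4844, 5866 and 8355 fragments against 32, 27, 39 and 72 for Rpl39. Its level per kb was 200 to 310 times that of Rpl39. Autosomal Rpl36al lay 169 to 433 times above X-linked Rpl36a, which had only 5 to 11 fragments per sample. Neither of this pair had a unique coding word (0% each), and the part of fragments that match several genes was not tested. Rps4l, annotated as a transcribed processed pseudogene, lay 30.9 to 49.2 times above X-linked Rps4x, with 1816, 2192, 2198 and 2911 fragments against 97, 77, 118 and 163. So in each of these 4 pairs the autosomal copy was the higher one in every sample.

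A like order held for an autosomal gene with an autosomal partner: Rps27l was 24.7 to 37.5 times as high per kb as Rps27, whose coding words were all shared with other genes. Rpl22l1 was 1.67 to 1.89 times as high as Rpl22. Rpl7l1 was lower than Rpl7, at 0.192 to 0.241 times its level. Rpl3l gave 4, 3, 0 and 4 fragments, against 161, 182, 191 and 258 for Rpl3, so no ratio was formed.

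The introns of the X-linked genes, which are free of pseudogene copies, were also low. Of 77 members with introns, Rpl36a, Rpl10, Rpl39 and Rps4x ranked 2, 3, 4 and 8 from the lowest in mean intron CPM, with 0.246, 0.554, 1.19 and 1.53 against a median of 8.69 over the members. Their intron counts were 3, 4, 3 and 2 for Rpl36a and 8, 4, 13 and 3 for Rpl10. Rpl39 had 14, 12, 20 and 12, and Rps4x 15, 21, 26 and 13. Rpl39l, by contrast, had 623 and 584 intron counts in Tdrd6+/- and 699 and 754 in Tdrd6-/-. Some autosomal members were as low, as Rpl3l ranked 1 and Rpl28, Rpl41 and Rps16 ranked 5, 6 and 7, with 0.159, 1.24, 1.29 and 1.48. Of these, Rpl41 had 190 CPM per kb of exon. Gene length differs between the members, and intron CPM is not per length.

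**Figure D2:**
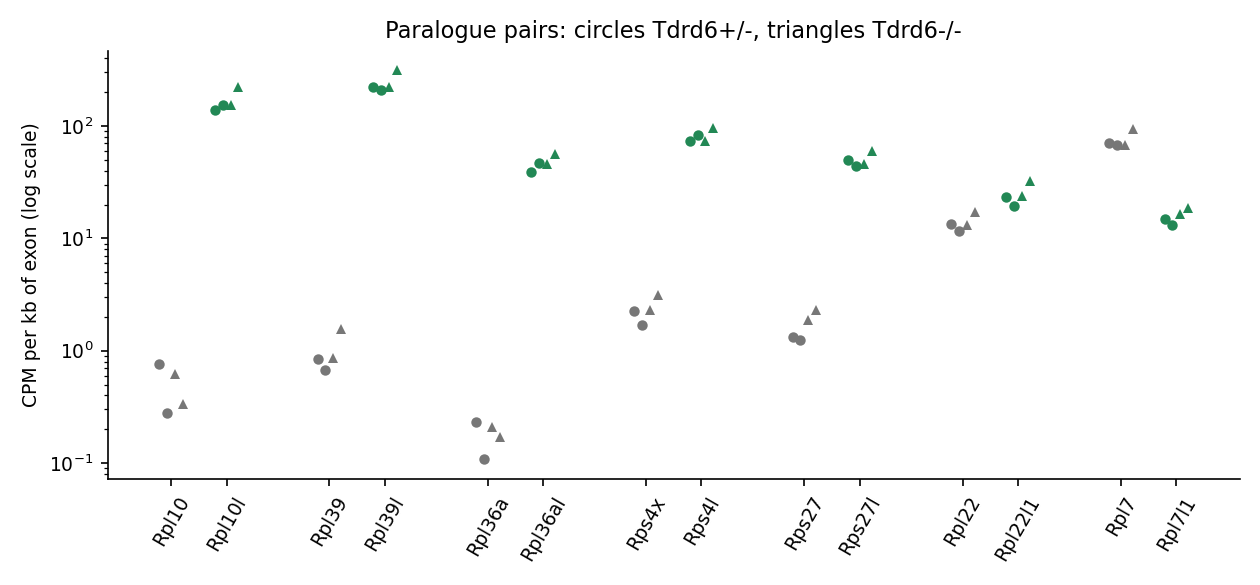
Level of both members of 7 paralogue pairs in each sample (CPM per kb of exon, log scale), with the first-named gene in grey and its paralogue in green, Tdrd6+/- samples as circles and Tdrd6-/- samples as triangles. Rpl10l, Rpl39l, Rpl36al and Rps4l lie above their X-linked partners in all 4 samples, and Rpl7l1 lies below Rpl7.

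The balance within the pairs was not shown to depend on the genotype. The log2 ratio of Rpl10l to Rpl10 was 8.30 ± 1.14 in Tdrd6+/- and 8.67 ± 0.99 in Tdrd6-/- (SD, n = 2 each), and that of Rpl39l to Rpl39 was 8.15 ± 0.18 and 7.83 ± 0.26. The widest difference was in Rps27l to Rps27, 5.19 ± 0.06 in Tdrd6+/- and 4.66 ± 0.04 in Tdrd6-/-, a difference of -0.53 with no overlap between the genotypes. In exact two-sided permutation tests of the 7 pairs, p was 0.33 to 1, and 0.78 to 1 after Benjamini-Hochberg adjustment. With 2 samples against 2, p cannot go below 0.33.

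In gene expression, no member passed the test between the genotypes, although nearly all leaned towards more RNA in Tdrd6-/-. Of the 62 members with enough counts to test, 0 had an adjusted p under 0.1 in edgeR's quasi-likelihood test, where 4.8% of 16555 genes did. At an unadjusted p under 0.05 there were 12 members (19.4%), all higher in Tdrd6-/-, against 14.0% of all genes. DESeq2 called 1 member, Rpl41 (DESeq2 adjusted p = 0.098), which is 1.56%, where 5.56% of all genes were called. The log2 fold change was positive for 60 of 62 members, with a median of 0.25 against 0.01 over all genes tested. The 33 tested genes of the large subunit had a median of 0.28, the 27 of the small subunit 0.25, and the stalk genes Rplp0 and Rplp1 0.42 and 0.24. The 17 joined rows had a median of 0.24 and also 0 calls, with 3 of them lower. An unadjusted edgeR p under 0.05 was found in 2 of them (11.8%), of which 1 was higher.

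Rpl41, which encodes the smallest ribosomal protein, came closest. It measured 178 and 200.1 CPM in Tdrd6+/- and 220.0 and 290.0 CPM in Tdrd6-/-, so both Tdrd6-/- samples were above both Tdrd6+/- samples. Its log2 fold change was 0.43 ± 0.14 (SE), with an adjusted p of 0.119 in edgeR. Rpl37 of the large subunit measured 22.4, 27.8, 27.9 and 40.8 CPM, where Tdrd6-/- replicate 1 was level with Tdrd6+/- replicate 2 and replicate 2 stood above all (log2 fold change 0.45 ± 0.19, adjusted p = 0.246 in edgeR).

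Rplp0 measured 275 and 305 CPM in Tdrd6+/- and 280 and 498 CPM in Tdrd6-/-. Only Tdrd6-/- replicate 2 was higher, and the edgeR fit gave 0.42 ± 0.18 with an adjusted p of 0.268. The testis paralogue Rpl10l showed the same shape, with 141 and 158 CPM against 158 and 226 (0.36 ± 0.15, edgeR adjusted p = 0.256). Rpl39l measured 183 and 174 CPM against 186 and 261 (0.32 ± 0.15, edgeR adjusted p = 0.32).

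The 2 largest fitted changes belonged to genes with few counts. Rps27, a zinc-binding protein of the small subunit, had 36 and 36 fragments in Tdrd6+/- and 62 and 77 in Tdrd6-/-, a log2 fold change of 0.71 ± 0.33 with no overlap (edgeR adjusted p = 0.322). Rpl39 followed with 0.67 ± 0.37. Beside Rpl29, Rpl37, Rpl41 and Rplp0, the 10 largest by size among members with their own row also held Rpl17 with 0.46, Rps4x with 0.45, Rpl38 with 0.43 and Rps29 with 0.40, none past the threshold (edgeR adjusted p from 0.365 to 0.599). Among members with their own row, those that leaned lower in Tdrd6-/- were Rpl28, at -0.03, and Rpl29. Of the 17 joined rows 3 leaned lower, those of Rpl30 (-0.58), Rpl24 (-0.17) and Rpl10 (-0.12).

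Rpl29, a large subunit protein on chr9:106429454-106431568, was set by a single sample. It counted 1417 fragments in Tdrd6+/- replicate 1 and 335, 598 and 899 in the other samples in order, so that its replicates differed more than its genotypes (log2 fold change -0.49 ± 0.36, edgeR adjusted p = 0.616). Exon segment 6 held 97.2%, 91.6%, 93.5% and 96.2% of the fragments of the gene in sample order, so it was the main segment in every sample. Without that sample the log2 fold change was 0.98 (edgeR adjusted p = 0.0235), and without Tdrd6+/- replicate 2 it was -1.20 (0.00474). Rpl30 on chr15, joined with Gm24523, was likewise high in Tdrd6+/- replicate 1 alone, with 988 fragments against 412, 519 and 597. Its exon segment 7 had 352 fragments there and 26, 29 and 28 in the others.

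**Figure D3:**
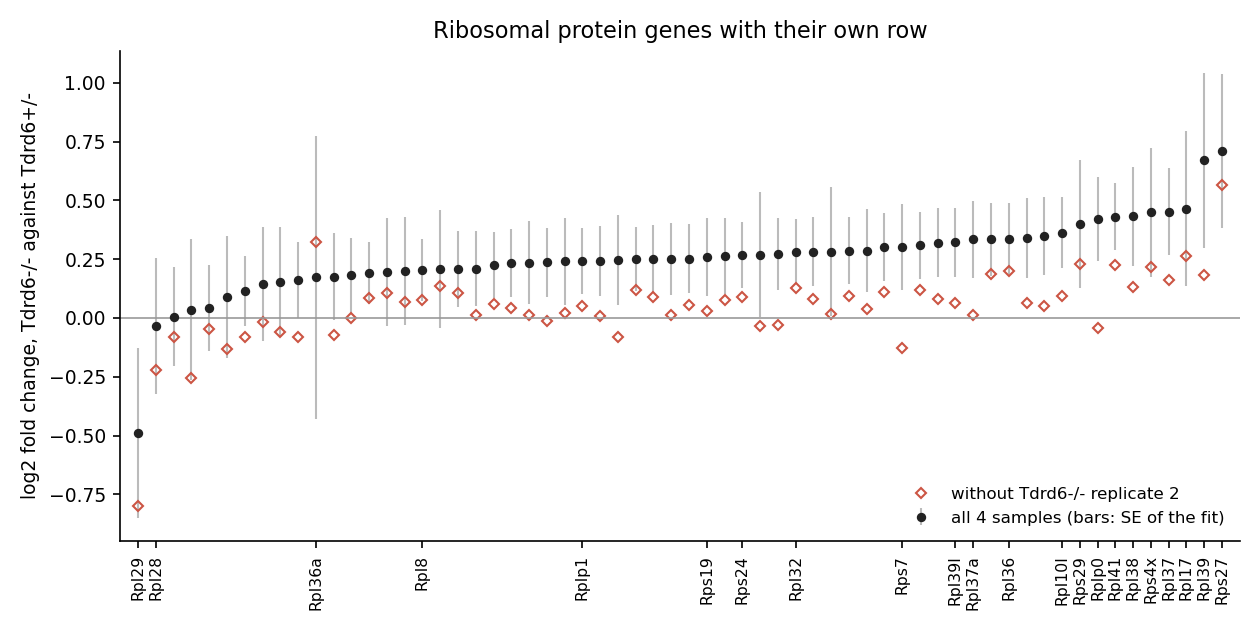
Log2 fold change of Tdrd6-/- against Tdrd6+/- for the 62 tested members with their own row, in order of size, with the names of members described in the text. Black points with bars are the edgeR fit to all 4 samples and its SE, and open diamonds the fit without Tdrd6-/- replicate 2. The black points are above 0 for 60 of 62 genes with a median of 0.25, and the diamonds for 44 of 62 with a median of 0.06.

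The lean rested on Tdrd6-/- replicate 2. That sample was the highest of the 4 in 58 of the 62 members, which is 93.5%, where 28.7% of all genes tested had it highest. Set against each gene's own mean, the median member stood at -0.14 and -0.11 on the log2 scale in Tdrd6+/-, at -0.08 in Tdrd6-/- replicate 1 and at 0.32 in Tdrd6-/- replicate 2. Without Tdrd6-/- replicate 2 the median log2 fold change was 0.06, with 44 of 62 members positive. Without Tdrd6-/- replicate 1 it was 0.45, with 62 of 63 positive. Both Tdrd6-/- samples were above both Tdrd6+/- samples in 24 of 62 members (38.7%), against 20.1% of all genes.

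The replicates of the genotypes thus spread unequally. The median absolute difference between the Tdrd6+/- replicates was 0.16 on the log2 scale over the members and 0.23 over all genes. Between the Tdrd6-/- replicates it was 0.39 over the members and 0.19 over all genes, and 61 of 62 members were higher in replicate 2 than in replicate 1. The members took 0.432% and 0.432% of all gene counts in Tdrd6+/- and 0.477% and 0.629% in Tdrd6-/-. The mean was 0.432% ± 0.000188 (SD, n = 2) in Tdrd6+/- and 0.553% ± 0.107 in Tdrd6-/- (exact permutation test, two-sided p = 0.33, the smallest that this design allows).

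**Figure D4:**
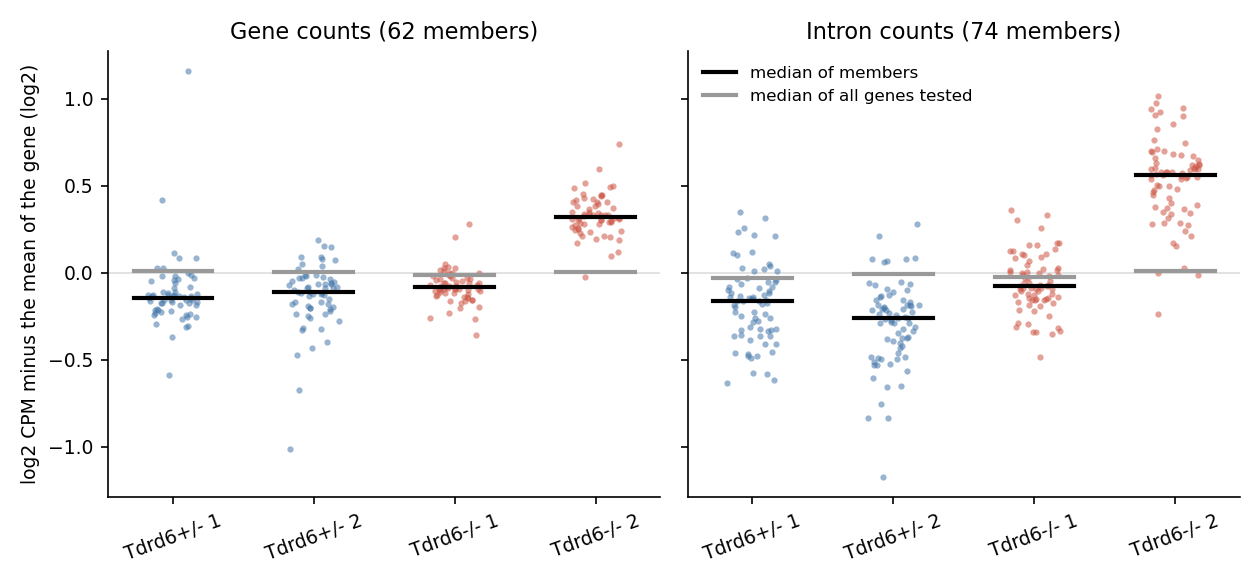
Log2 CPM of each member minus the mean of that member over the samples, for gene counts (left) and intron counts (right), by sample, with Tdrd6+/- in blue and Tdrd6-/- in red. Black bars are the medians of the members and grey bars those of all genes tested. Tdrd6-/- replicate 2 stands apart, with member medians of 0.32 for gene counts and 0.56 for intron counts, while the grey bars stay near 0.

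Other properties of Tdrd6-/- replicate 2 moved with this. It had the fewest intron counts, 9603669 against 12258600 to 13937818 in the other samples. Across all genes, its deviation ran with exon length, from 0.12 on the log2 scale in genes of up to 1 kb and 0.14 in those of 1 to 2 kb down to -0.16 in those over 8 kb. The medians of the members in this sample were 0.30 (11 genes up to 1 kb), 0.33 (28 genes of 1 to 2 kb), 0.30 (19 genes of 2 to 4 kb) and 0.35 (4 genes of 4 to 8 kb). Exon length counts every annotated isoform and need not be the length of the message, as Rps15a had 6270 exon bases and 390 coding bases. Members in the longer classes may thus have short messages, so their medians do not show how the lean runs with message length. In genes of up to 2 kb the median was 0.33 for members and 0.13 for all genes tested. The part of length or of the library in the lean was not tested.

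**Figure D5:**
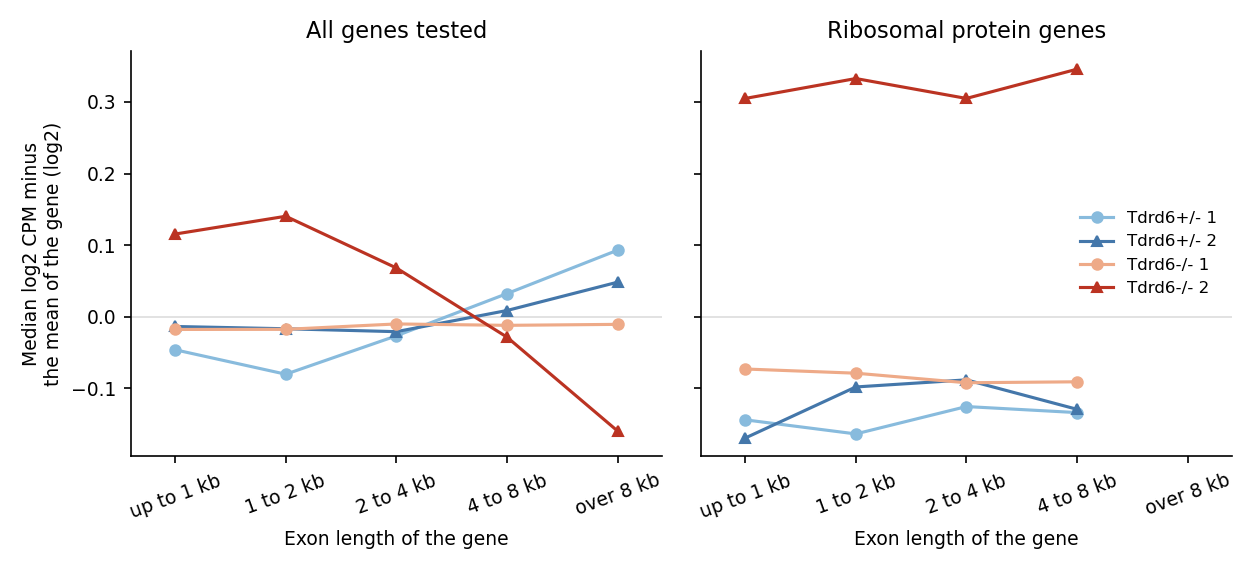
Median log2 CPM minus the mean of the gene, by exon length of the gene and by sample, for all genes tested (left) and for the members (right, where no member is over 8 kb). In Tdrd6-/- replicate 2 the median of all genes falls from 0.12 in the shortest to -0.16 in the longest, while that of the members lies between 0.30 and 0.35 in every length class they fill.

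Markers of other testis cells were low beside those of diplotene cells. The summed level of 10 Sertoli cell genes was 123, 114, 137 and 165 CPM in sample order, with 0 of 10 called. Of these, 9 of 10 had a positive log2 fold change, the median was 0.38 against 0.25 over the members, and Tdrd6-/- replicate 2 was the highest sample in 6. That of 10 genes of spermatogonia and early germ cells was 27.8, 27.6, 32.3 and 36.2 CPM (0 of 10 called), with 8 of 10 positive, a median of 0.32 and Tdrd6-/- replicate 2 highest in 7, so both lists leaned as the members did. The 9 genes of Leydig, peritubular and immune cells summed to 13.6, 12.1, 14.5 and 12.2 CPM (0 of 9 called), with 5 of 9 positive, a median of 0.26 and Tdrd6-/- replicate 2 highest in 2. Spermatid genes summed to 119, 168, 145 and 142 CPM, with 4 of 5 tested positive, a median of 0.73, Tdrd6-/- replicate 2 highest in 0 and 2 of 5 called higher, Acrv1 and Spaca1, while the protamine gene Prm1 was at 0 CPM in 3 samples and 0.125 CPM in Tdrd6-/- replicate 2. Diplotene genes summed to 9466 to 10890 CPM with Tdrd6 among them and to 9455 to 10639 CPM without it. Of 12, 7 were positive with a median of 0.05, Sycp1 of the synaptonemal complex was called higher (0.60, edgeR adjusted p = 0.0467), and the Piwi protein gene Piwil1 (-0.44, edgeR adjusted p = 0.0773) and Tdrd6 were called lower. No marker of these lists was at 0 in all samples. In bulk RNA, fewer cells of a type and less RNA per cell cannot be told apart, and the part of other cells in the lean was not tested.

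Other parts of the translation machinery were set beside the members. The ribosomal protein genes that the naming rule leaves out, among them Rpsa, Rps3a1 and Fau, leaned the same way, with 7 of 7 higher, 0 called, a median log2 fold change of 0.37 and Tdrd6-/- replicate 2 highest in 7 of 7. Genes of the mitochondrial ribosome, whose proteins are also encoded by short nuclear genes, were higher in 64 of 73 with 0 called, a median of 0.18 and that sample highest in 59. Translation factors whose messages carry TOP tracts leaned less, though only 12 of 16 listed names were measured. Of these, 7 of 12 were higher with a median of 0.04 and Tdrd6-/- replicate 2 highest in 5. Pabpc1, the poly(A)-binding protein, fell by 1.12 (edgeR adjusted p = 4.56e-05). Among 28 ribosome assembly factors 20 were higher with a median of 0.12 and Tdrd6-/- replicate 2 highest in 14, with 0 called higher and 2 called lower, the nucleolar protein Ncl (-0.53, edgeR adjusted p = 0.0919) and Gar1, a part of the pseudouridylation particles (-1.04, edgeR adjusted p = 0.0122).

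Few of the members' fragments fell on introns. Of the counts on a member's gene and introns together, the median member had 9.76% and 8.70% on introns in Tdrd6+/- and 9.13% and 8.30% in Tdrd6-/- (58 members). Over 13030 genes the medians were 40.5%, 38.2%, 38.0% and 31.5%. The largest intron shares belonged to Rps13 with 59.8%, Rpl17 with 59.5%, Rps12 with 50.5%, Rpl3 with 48.8% and Rps27 with 48.3%, of whose coding words at most 15.2% were unique. The smallest belonged to Rpl41 with 0.228%, Rpl35a with 1.12%, Rps15 with 1.39% and Rps18 with 1.50%. Annotated junctions gave 81.2 to 82.8 counts per 100 gene counts in the members, against 52.0 to 54.9 over all genes.

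Intron counts leaned higher in Tdrd6-/- as well, and 1 member passed. Summed over the introns of a gene, 74 members could be tested, of which Rplp0 rose (1.35%). Of 15025 genes, 1.42% were called in either direction and 0.173% were called higher. The log2 fold change was positive in 70 of 74 members, with a median of 0.49 against 0.07 over all genes, and 25 members had an unadjusted p under 0.05 (33.8%, against 12.8% of all genes). Tdrd6-/- replicate 2 was again the highest sample, in 67 of 74, a count that was not made over all genes. Set against each gene's own mean intron CPM, the median in that sample was 0.56 on the log2 scale for members and 0.01 for all genes tested. The summed intron counts of the members were 13639 and 13568 in Tdrd6+/- and 16716 and 19806 in Tdrd6-/-, in that sample against the smallest intron total of all. Without it the median was 0.15 and 0 members were called, and without Tdrd6-/- replicate 1 the median was 0.78 and 29 of 74 were called (39.2%), where 6.15% of 15457 genes were.

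Rplp0 had 149 and 129 intron counts in Tdrd6+/- and 196 and 298 in Tdrd6-/-, with both Tdrd6-/- samples above both Tdrd6+/- samples (log2 fold change 0.95 ± 0.27, edgeR adjusted p = 0.0592). Its intron 3 had 1, 1, 3 and 46 counts and intron 6 had 48, 52, 68 and 116, so much of the height of Tdrd6-/- replicate 2 lay in these introns. Without that sample the log2 fold change of Rplp0 introns was 0.36 (edgeR adjusted p = 0.662). Rpl32 came next with 183, 179, 278 and 319 intron counts (0.82 ± 0.25, edgeR adjusted p = 0.104).

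Whether introns moved apart from the gene count was tested in a joint fit. Of 58 members, 0 passed in edgeR, where 2.99% of 13030 genes did, and 7 members had an unadjusted p under 0.05 (12.1%, against 13.4% of all genes), 5 of them towards more intron. The median log2 difference was 0.25 against 0.06 over all genes. The smallest adjusted p was that of Rpl32 (0.51, edgeR adjusted p = 0.162). Without Tdrd6-/- replicate 1, 12 of 58 members passed (20.7%), where 8.55% of 13397 genes did.

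Splicing within the members was tested as the use of single introns, exon segments and junctions. Of 40 member introns past the filter on mean count (85.5), DESeq2 called 0 for usage between the genotypes, against 1.94% of 28903 introns. The edgeR usage test called 0 of 275, against 2 of 127248 introns. At an unadjusted DESeq2 p under 0.05 there was 1 member intron (2.5%, against 10.5% of all). That intron was the first of Rpl36, which took 51.6% and 49.7% of all Rpl36 intron counts in Tdrd6+/- and 61.5% and 61.3% in Tdrd6-/- (log2 change 0.63 ± 0.28, DESeq2 adjusted p = 0.36). Among 492 exon segments and junctions, DESeq2 called 0, against 0.221% of 147710, and edgeR called 0 of 951, against 72 of 322061. An unadjusted DESeq2 p under 0.05 was found in 13 (2.64%, against 4.36% of all). In counts simulated at a dispersion of 0.02, a log2 change of 1 was recovered in 34.4% of changed introns. For exon segments and junctions it was 11.9%, so small changes could be missed. A log2 change of 2 was recovered in 95.3% and 94.8%.

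The exon segments closest to the threshold were in Rps29, a small zinc-binding protein of the small subunit. Its segment 5 held 52.5% and 50% of the gene's fragments in Tdrd6+/- and 68.5% and 71.7% in Tdrd6-/-, on 42, 39, 74 and 99 fragments (log2 change 1.17 ± 0.38, DESeq2 adjusted p = 0.378). Junction 29 of Rps19, a small subunit protein that is mutated in Diamond-Blackfan anaemia, held 11.0% and 11.4% against 15.3% and 16.3% (0.58 ± 0.20, DESeq2 adjusted p = 0.494). In both, each Tdrd6-/- sample lay above each Tdrd6+/- sample, including Tdrd6-/- replicate 1. The files give no positions for exon segments and junctions, so these were not placed in the genome.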

How the data were processed

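Paired-end RNA-seq fragments of the 4 samples were aligned by the authors with GSNAP to mm10 with Ensembl release 75. The deposited values are counts that were not normalized, per gene, exon segment and junction in 1 file and per intron in another. The counting program is not given in the sources used here. Overlapping genes are joined in 940 rows, which were left out of exon and junction usage. The same fragment may be counted on more than 1 segment.

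Gene rows and summed introns were tested by the quasi-likelihood method of edgeR 4.0.16 after filterByExpr and TMM scaling, Benjamini-Hochberg adjusted over all genes, at a false discovery rate of 0.1. Usage was fitted with DESeq2 1.42.0 as in DEXSeq and JunctionSeq, for features with at least 10 counts, in R 4.3.3. Introns against gene counts were tested as an interaction in edgeR. Lengths, positions and coding words of 50 bases came from GENCODE M21, and starts from RefSeq. The scripts were tested on simulated data. Each sample had 43778449 to 47221554 tallied fragments, and intron counts came to 9603669 to 13937818.

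The members and lists were chosen with earlier results of these data known. Members named with values were those called, the 10 largest fold changes, the 5 highest and lowest levels, the 5 largest and smallest intron shares, paralogue pairs, and introns that hold a snoRNA. Of these, 1 member is not reported here. Rpl30, Rps24, Rps29, Rps19 and Rpl36 were named for their features after their values were seen. Alternatives were other normalizations, filters, tools, denominators, the replicate block and leaving out each sample.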

Additional observations from a re-analysis of the deposited data

Results flagged for a closer look

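An unannotated junction of Rps24, a small subunit protein needed for processing of the small subunit RNA (chr14:24487125-24496959, plus strand), carried more counts than 3 of the 5 annotated junctions of the gene, in data outside the comparisons above. It had 943 and 1218 counts in Tdrd6+/- and 1566 and 1797 in Tdrd6-/-, so both Tdrd6-/- samples were higher. As a share of all junction counts of Rps24 it made up 16.5% and 17.6% in Tdrd6+/- and 19.3% and 17.6% in Tdrd6-/-, and its usage did not pass the test (log2 change 0.18 ± 0.11, DESeq2 adjusted p = 1). It held 79.0% to 81.2% of all counts on unannotated junctions of the members. Groups of 2 samples were too small to look for outlying samples by a fixed rule.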

How the results depend on the processing

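Members with few unique coding bases had few counts. With library totals alone, 1 member was called in gene expression in place of 0 (1.61%, against 3.56% of all genes). DESeq2 called 1 (1.56%, against 5.56%) and the replicate block 2, Rplp0 and Rpl41 (3.23%, against 6.32%). The calls also changed when 1 sample was left out. The median log2 fold change of the members lay between 0.06 and 0.45 when 1 sample was left out, and between 0.24 and 0.34 under the other alternatives. In intron counts per gene the 1 call became 0 with library totals alone, 0 with DESeq2 (where Rplp0 had no adjusted p) and 0 with the replicate block, and 0 to 29 when 1 sample was left out, with the median between 0.15 and 0.78. Introns against gene counts gave 1 call with library totals alone and 0 to 12 with 1 sample left out. Leaving out 1 sample gave 0 to 2 calls in intron usage (Rps24 or Rpl39l) and 0 to 4 in exon and junction usage (among them Rplp0, without Tdrd6-/- replicate 1). In introns against gene counts, the call with library totals alone was Rpl32, which is 1.72% of members against 2.55% of all genes. The usage calls with 1 sample left out come from fits with 1 sample in a group. Whether those usage calls exceed the rate over all features was not tested. The difference in the share of gene counts on the members was 0.12 percentage points, and 0.04 to 0.20 with 1 sample left out. The difference of the log2 ratio changed sign with 1 sample left out for Rpl10l to Rpl10 (-0.44 to 1.17), Rpl36al to Rpl36a (-0.67 to 0.68) and Rpl7l1 to Rpl7 (-0.044 to 0.26). The fold change of Rpl29 ran from -1.20 to 0.98 in the same way. For the calls not named with a sample, the cause was not tested.

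The replicate numbers of the genotypes share only a number: same-numbered samples deviated with a correlation of -0.107 over 12347 genes. In gene expression the replicate block called 1046 genes where the fit without it called 794. With the block, members called went from 0 to 2 in gene expression and from 1 to 0 in intron counts per gene. In the other tests it left 0 members called. The crossed pairing, added after seeing the data, gave 1175 genes, with 1 member called in gene expression, 1 in intron counts per gene and 0 in the other tests. Counting the joined rows too, also added later, left 0 members called. Of 169 values under an alternative, 126 kept their direction and side of the threshold, 24 moved, 6 reversed, 8 came to pass and 5 no longer passed.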

Other observations

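Rps24 had the highest intron count of any member, and most of it lay in 1 intron. Intron 5 had 1559, 2192, 2579 and 2969 counts, which was 77.4% to 87.1% of the intron counts of the gene. Exon segment 5 of the same gene had 1513, 2145, 2543 and 2888 counts, so that the intron and the segment counted 1.01 to 1.03 times the same number in every sample. The files give no positions for exon segments, so whether both count the same stretch was not tested.

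Members often host snoRNAs, small RNAs that guide modification of ribosomal RNA. The annotation places 53 snoRNAs inside 28 members, and 15 of the 17 joined rows belong to such hosts. Intron counts of the hosts leaned as those of the other members did, with a median log2 fold change of 0.49 in 27 hosts and 0.49 in 47 others. Introns were placed by their order for 162 introns of 44 members, and 10 of these hold a snoRNA. In 3 of them the counts per kb were above those of the other introns of the gene. Of the 10, intron 2 of Rpl23 (chr11:97778636-97781333), which holds Gm27326, had the most counts, with 126, 112, 139 and 117, but at 183 per kb summed over the samples it lay below the other introns of the gene (740 per kb). Intron 3 of Rpl23, which holds Snora21, had 583 counts per kb.

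Rpl24 is counted only together with Zbtb11 and Gm28037, in a row of 3805, 3883, 3957 and 4093 fragments, and its introns gave 1864, 1923, 2226 and 2982 counts.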
